A study of Mus musculus with 15 samples.

Results

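The genes for mitochondrial ribosomal proteins were followed through ATAC-seq of mouse pancreatic islets, an assay that tags open chromatin through cuts by the transposase Tn5. Their peaks were chosen by name, as every peak in the authors' 4 deposited tables whose gene symbol was Mrpl or Mrps followed by a digit, with repeated rows of a position counted once. This gave 24 of 7826 peaks for βKO against control before partial pancreatectomy (PPx, removal of part of the pancreas by surgery) and 43 of 13111 after it. It gave 25 of 8070 peaks for control islets after against before PPx, and 42 of 12767 for βKO islets after against before PPx. The islets came from 15 male mice aged 3 months that all carried floxed Arid1a alleles and MIP-rtTA, a transgene that makes the doxycycline-responsive activator rtTA from an insulin promoter. TRE-Cre was present in the βKO mice as well, so Cre could act only where the insulin promoter was active, and the other islet cells kept their floxed alleles uncut by design. Doxycycline was given in drinking water at 1 g/L for 2 weeks, PPx followed 1 week after it was stopped, and islets were collected 6 days after PPx. Before PPx there were 4 control and 3 βKO mice, and after PPx 4 of each, with 40000 islet cells per library. Arid1a encodes a subunit of the SWI/SNF (BAF) complex, which moves and evicts nucleosomes.

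Mitochondria keep their own ribosome, built from RNAs encoded by mitochondrial DNA and from proteins that are all encoded in the nucleus, made in the cytosol and imported. Its large subunit (Mrpl proteins) joins amino acids and its small subunit (Mrps proteins) reads the messenger RNA, and together they make the core membrane subunits of the respiratory chain. In β cells, oxidation of glucose in mitochondria supplies the ATP that closes potassium channels and triggers insulin release. Some of these proteins descend from bacterial ribosomal proteins and others are found only in mitochondria. Promoters of such genes are usually open in all cell types, often lack a TATA box, and often carry sites for NRF1, GABPA and other ETS factors, YY1 and SP1.

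The tables hold no values per mouse, only the log2 concentration (a read density, normalised by the authors) of each group, with a log2 fold, a p-value, a false discovery rate (FDR) and how many libraries of each group had a called peak. Depth per library is therefore unknown, and the spread between mice enters only through the authors' p-values, so nothing in the labels shows whether it also includes technical spread. Changes are given here as βKO minus control or after minus before on the log2 scale, and a peak is called opened or closed at an FDR under 0.05 in the authors' deposited table. Standard errors (SE) are approximate and were derived from the authors' fold and p-value. Levels of the same group differed between tables by a median of 0.23 (βKO before PPx) and 0.18 (control before PPx), with values of 0.00 and -0.05 for the groups after PPx, so levels are compared only within a table. The islet identity was visible in part. After PPx, 8 of 14 β-cell marker genes had a listed peak. Their 15 peaks had a median change of 0.58 between the genotypes, beside 0.61 over all peaks. The changes ranged from -0.15, at an Slc30a8 intron, to 1.52, and 2 of the peaks opened, beside 9.88% of all peaks. At the Ins1 promoter, which opened, control islets read 4.13 and βKO islets 5.62, per the authors' deposited table (FDR 0.0154). Before PPx it had read 4.12 and 5.08. A peak near Sst, 1 of 2 δ-cell markers, opened as well (4.20 and 5.32, a change of 1.12, FDR 0.0294, per the authors' deposited table). Its part in the members' gain was not tested. Peaks were listed for 3 of 5 α-cell markers, 1 of 9 acinar, 1 of 5 duct, 2 of 5 endothelial, 1 of 5 stromal and 2 of 6 leukocyte markers. Their median changes between the genotypes after PPx were, in this order, 0.40, 0.08, 0.265, 0.08, 0.47 and 0.675, and none opened. In βKO islets between the times, 1 of 14 β-cell and 1 of 2 leukocyte marker peaks opened, beside 7.44% of all peaks. These were at Slc30a8 and Csf1r. In these bulk islets a change in the share of a cell type and a change of accessibility per cell cannot be told apart.

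The promoter windows that carry the contrasts below are shown here, from 250 bases before to 50 after the RefSeq start (GRCm38.p6), 5′ to 3′ on the strand of the gene. Mrps14 (chr1:160194965-160195264, plus strand) and Mrpl46 (chr7:78783040-78783339, minus strand) opened in βKO islets after PPx against both control and the earlier time. Mrps11 (chr7:78782881-78783180, plus strand) starts in the Mrpl46 peak and reads the other way. Mrpl16 (chr19:11770165-11770464, plus strand) and Mrps22 (chr9:98601630-98601929, minus strand) had the lowest changes in the comparisons that hold βKO islets after PPx, Mrps22 against control and Mrpl16 between the times. All 300 bases of each window lie inside the listed peak after PPx. Capitals mark GGGCGG (SP and KLF factors), AAGATGGC (YY1) and CCGGAAG (ETS factors) on either strand.
Mrps14: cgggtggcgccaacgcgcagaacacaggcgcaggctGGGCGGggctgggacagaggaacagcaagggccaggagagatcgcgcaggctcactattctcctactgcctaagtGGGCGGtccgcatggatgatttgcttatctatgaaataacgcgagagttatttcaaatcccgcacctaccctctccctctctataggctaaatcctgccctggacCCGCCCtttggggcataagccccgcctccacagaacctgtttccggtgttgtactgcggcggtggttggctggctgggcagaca
Mrpl46: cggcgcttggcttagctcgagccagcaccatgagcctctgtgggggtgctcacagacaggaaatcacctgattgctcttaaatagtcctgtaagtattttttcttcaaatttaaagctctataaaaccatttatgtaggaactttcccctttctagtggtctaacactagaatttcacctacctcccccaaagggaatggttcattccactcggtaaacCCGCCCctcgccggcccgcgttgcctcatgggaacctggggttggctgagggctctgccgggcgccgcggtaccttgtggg
Mrps11: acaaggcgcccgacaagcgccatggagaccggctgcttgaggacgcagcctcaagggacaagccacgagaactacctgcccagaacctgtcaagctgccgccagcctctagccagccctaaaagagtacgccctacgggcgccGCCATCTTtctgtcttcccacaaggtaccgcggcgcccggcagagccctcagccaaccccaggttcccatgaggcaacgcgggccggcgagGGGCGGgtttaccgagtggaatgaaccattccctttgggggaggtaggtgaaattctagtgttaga
Mrpl16: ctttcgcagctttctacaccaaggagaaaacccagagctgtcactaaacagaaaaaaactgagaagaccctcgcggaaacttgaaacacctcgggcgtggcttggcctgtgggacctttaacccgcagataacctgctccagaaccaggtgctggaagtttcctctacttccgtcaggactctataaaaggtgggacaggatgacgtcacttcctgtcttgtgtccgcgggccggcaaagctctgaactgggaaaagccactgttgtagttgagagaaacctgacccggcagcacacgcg
Mrps22: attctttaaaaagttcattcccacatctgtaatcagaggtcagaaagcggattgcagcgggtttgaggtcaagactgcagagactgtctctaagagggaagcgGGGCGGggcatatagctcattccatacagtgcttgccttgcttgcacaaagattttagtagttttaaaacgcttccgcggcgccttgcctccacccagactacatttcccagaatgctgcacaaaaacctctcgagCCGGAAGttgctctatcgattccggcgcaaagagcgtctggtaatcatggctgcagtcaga

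The Mrps14 window holds GGGCGG or its complement at 3 places, 214, 139 and 34 bases before the start. Mrpl46 has it once, 31 bases before its start. Mrps11 has the YY1 word 107 bases before its start and the SP word 16 bases before. Mrps22 combines an SP word 147 bases before the start with an ETS word 11 bases before it, and Mrpl16 holds none of the words searched. Such a match describes letters only, and neither shows that a factor was bound there nor gives a cause.

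RefSeq lists 78 protein-coding genes of these names, 49 for the large and 29 for the small subunit. A peak of their own name was listed for 35 of them, 24 Mrpl and 11 Mrps, in at least 1 comparison, and for 21 in all 4. The 35 genes held 45 separate regions, of which 35 were promoters in the authors' annotation and 10 were introns or distal sites. Only the 2 comparisons that include βKO islets after PPx listed 19 of these regions, against 23 listed in all 4. A region listed only there had to be called in those islets, so its gain is partly set by how peaks were listed. Another 11 genes lacked a peak of their own name but had their start inside a peak named for a neighbour, and 32 had neither, among them Mrps5, Mrps7, Mrpl3 and Mrpl12.

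Before PPx, no mitochondrial ribosomal peak passed the test of βKO against control islets. None of the 24 peaks of 22 genes had an FDR under 0.05 in the authors' deposited table, against 0.0128% of all peaks called higher. None had an unadjusted p under 0.05 either, against 3.14% of all peaks. Their median log2 change was 0.03, with 13 peaks higher and 11 lower in βKO, beside a median of 0.00 over all peaks and 0.04 over all promoters. The strongest peak belonged to Mrpl32, a protein known to be cut to its mature form by the m-AAA protease of the inner membrane, with 5.90 in control and 6.03 in βKO islets, per the authors' deposited table. Mrpl50 (5.46 and 5.88) and Mrpl39 (5.16 and 5.46) came next, both encoding proteins special to mitochondria.

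None of the changes at the ends of the range before PPx passed the test. In this comparison 7825 of 7826 peaks shared the FDR printed below, so it says little about a single peak. Mrpl19, with a bacterial counterpart in the large subunit, read 3.90 in control and 4.49 in βKO islets, per the authors' deposited table, a change of 0.59 (SE 0.419, FDR 1). Mrpl15 followed with 4.14 and 4.62. The lowest value was at Mrps14, a protein of the head of the small subunit, with 4.62 in control and 3.88 in βKO islets, a change of -0.74 (SE 0.407, unadjusted p 0.0689, FDR 1). The intron peaks of Mrps27 (3.91 and 3.35) and Mrpl1 (5.33 and 4.80) were the next lowest in the authors' deposited table. Mrpl46 read 4.35 and 3.82. The members thus had no common direction between the genotypes at rest.

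After PPx most of the members were more accessible in βKO than in control islets. Of the 43 peaks of 34 genes, 41 (95.3%) were higher and 2 lower in βKO, beside 90.3% of all peaks and 96.9% of all promoters that were higher. Of the members, 9 opened and 0 closed in the authors' deposited table, a share to be read against the 9.88% of all peaks that opened. The median log2 change was 0.76, or 1.69-fold, with quartiles of 0.49 and 0.90. A similar gain was seen over the genome, since the median was 0.61 over all 13111 peaks and 0.71 over all 8050 promoters, of which 1154 (14.3%) opened. Set against peaks of like mean concentration and the same class (promoter or not), the members' median excess was 0.06, with quartiles of -0.10 and 0.21 and 27 of 43 above 0. The gain at these genes was thus near that of other peaks of like strength.

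**Figure D1:**
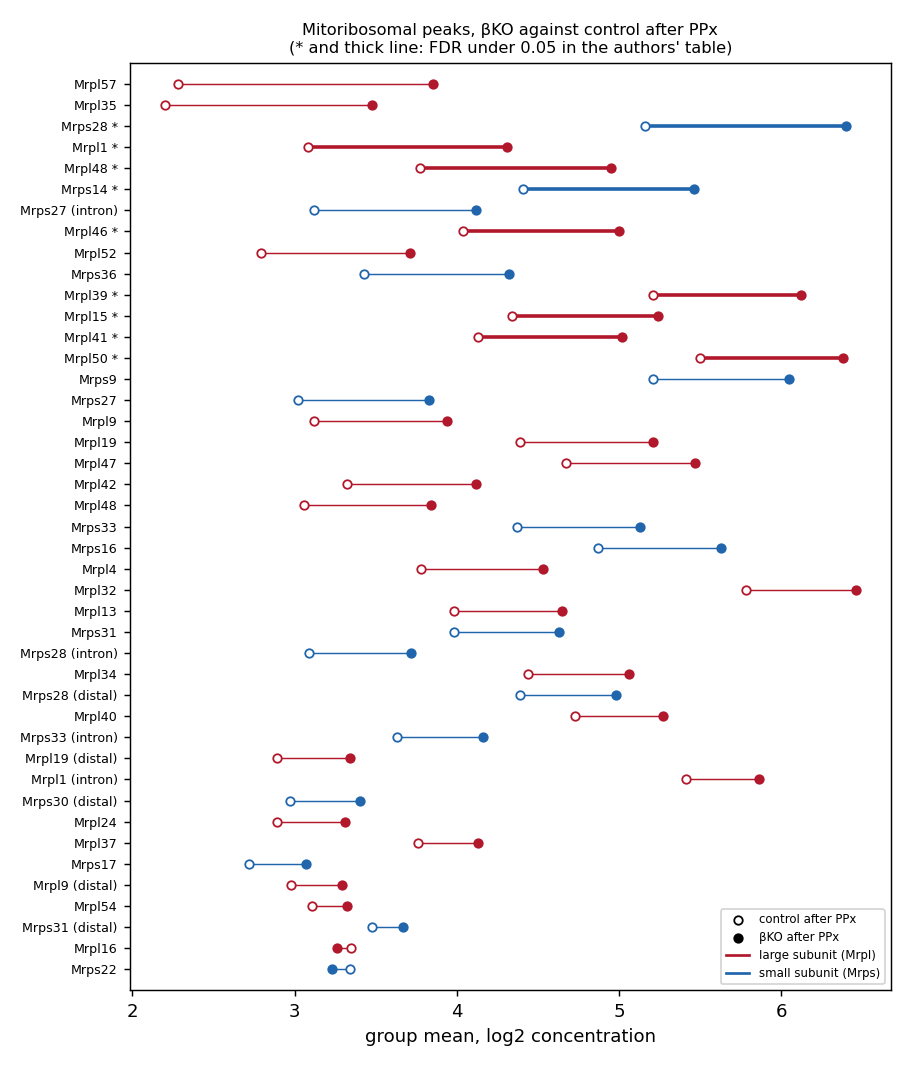
Group means (log2 concentration, x axis) of the 43 peaks after PPx, open circles for control and filled circles for βKO islets, sorted by the change, with large subunit genes in red and small subunit genes in blue. Only Mrpl16 and Mrps22 have the filled circle on the left, and the 9 opened peaks (thick lines) lie between control levels of 3.08 and 5.50.

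Restricting the view to regions listed in all 4 comparisons reduces the dependence on where a peak was called, although Mrpl1 and Mrpl48 were still called in 1 control and 4 βKO libraries after PPx. Over these 23 peaks all were higher in βKO after PPx, with changes between 0.36 and 1.25, a median of 0.82, and 9 opened (39.1%). The same restriction left 6808 peaks of any name with a median of 0.66, of which 6364 were higher and 16.1% opened. It also left 4912 promoters with a median of 0.73, of which 4841 were higher and 20.3% opened. The 23 members had a median mean concentration of 4.86, beside 4.45 for these peaks and 4.6 for these promoters. The shares opened were thus not compared at like strength. The 20 members not listed everywhere ranged from -0.11 to 1.57, with a median of 0.58 and 0 opened. These 20 were weaker, with a median mean concentration of 3.315 against 4.86, and include all 13 members with an FDR of 1, which could not be counted as opened.

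Large subunit genes made up 7 of the 9 opened peaks. Mrpl1, which corresponds to the protein of the mobile L1 stalk of bacterial ribosomes, gained most of these. Its promoter (chr5:96209781-96210381) read 3.08 in control and 4.31 in βKO islets, per the authors' deposited table, a change of 1.23 (SE 0.396, FDR 0.0348), with a called peak in 1 control and 4 βKO libraries. Before PPx the same promoter had read 3.77 in control and 3.42 in βKO islets (FDR 1). Mrpl48, a mitochondria-specific protein, had 2 promoter peaks. The one that also holds the start of Rab6a (chr7:100607171-100607771) rose from 3.77 to 4.95, a change of 1.17 (SE 0.368, FDR 0.0325) in the authors' deposited table, while the other (chr7:100590825-100591425) read 3.06 and 3.84 (FDR 0.139). The groups at the first of these had read 3.95 in control and 4.27 in βKO islets before PPx (FDR 1).

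The other 5 large subunit genes gained between 0.88 and 0.97. Mrpl46 read 4.04 in control and 5.00 in βKO islets (SE 0.336, FDR 0.0414) in the authors' deposited table, with its peak at chr7:78782758-78783358. Mrpl15, with a bacterial counterpart, read 4.34 and 5.24 (SE 0.324, FDR 0.0458), and Mrpl39 read 5.21 and 6.12 (SE 0.305, FDR 0.0396). Mrpl41 (4.13 and 5.02, FDR 0.0491) and Mrpl50 (5.50 and 6.38, FDR 0.0466) passed the threshold narrowly. Before PPx the corresponding changes in the authors' deposited table were -0.53 at Mrpl46, 0.48 at Mrpl15, 0.30 at Mrpl39, -0.08 at Mrpl41 and 0.42 at Mrpl50, all with an FDR of 1. None of these earlier differences passed the test.

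The 2 opened small subunit genes were Mrps28 and Mrps14. Mrps28 had the largest change of any opened member. Its promoter (chr3:8923478-8924078) rose from 5.16 in control to 6.40 in βKO islets, per the authors' deposited table, a change of 1.25 (SE 0.326, FDR 0.0212), and was called in all 4 libraries of each group. Against promoters of like concentration this was 0.47 higher. Mrps14 (chr1:160194849-160195449) rose from 4.41 to 5.46, a change of 1.05 (SE 0.318, FDR 0.0298) in the authors' deposited table, and was also called in every library. It was 0.29 above promoters of like concentration. The corresponding excess was 0.56 at Mrpl1, 0.44 at Mrpl48 and 0.24 at Mrpl46, and 0.10 to 0.16 at Mrpl15, Mrpl39, Mrpl41 and Mrpl50.

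Several peaks just missed the threshold. Mrpl47 had an FDR of 0.0533 (4.67 and 5.47) and Mrpl19 one of 0.055 (4.39 and 5.21) in the authors' deposited table. Mrps36, counted here by its name although its product is known as a subunit of the oxoglutarate dehydrogenase complex, had 0.0605 (3.43 and 4.32). Just inside were Mrpl41 and Mrpl50. The strongest peak of all, Mrpl32 (5.78 and 6.46), had an FDR of 0.123. At an unadjusted p under 0.05 the number of members was 23 of 43, beside 33.6% of all peaks and 45.3% of all promoters.

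The largest changes of all, at Mrpl57 and Mrpl35, belonged to weak peaks, and the strong Mrps28 promoter (1.25) came next. Mrpl57 read 2.28 in control and 3.85 in βKO islets, a change of 1.57 (SE 0.476, unadjusted p 0.000974), yet its FDR in the authors' deposited table was 1. It was called in 0 control and 2 βKO libraries. Mrpl35 (2.20 and 3.48, unadjusted p 0.0124), Mrpl52 (2.79 and 3.71) and the Mrps27 promoter (3.02 and 3.83) were alike in having a p under 0.05 and an FDR of 1. Over the whole table, 634 peaks combined a p under 0.05 with an FDR of 1, and none of them had a mean concentration above 3.5. In all, 13 members had an FDR of 1, so for them the FDR gives no sign of whether they changed. At the other end, Mrps22, a mitochondria-specific protein of the small subunit, read 3.34 and 3.23, and Mrpl16, the counterpart of bacterial L16, read 3.35 and 3.26 in the authors' deposited table. The distal peak of Mrps31 was next (3.48 and 3.67). These 3 peaks were also weak, and Mrps22 was called in 1 library of each group.

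Against control after PPx, the gain was smaller away from promoters. The 9 intron and distal peaks had a median change of 0.45 with 0 opened. Over all non-promoter peaks the median was 0.38 and 2.81% opened. The intron 3 peak of Mrpl1 was the strongest of them (5.41 in control and 5.86 in βKO islets, FDR 0.264 in the authors' deposited table), although the Mrpl1 promoter opened. Mrps28 had 3 peaks, and beside its promoter the distal peak (4.39 and 4.98, FDR 0.132) and the intron 2 peak (3.09 and 3.72, FDR 1) did not pass the threshold. The Mrps27 intron 2 peak changed most (3.12 and 4.12, FDR 0.0623) and was called in 0 control and 4 βKO libraries. The remaining ones were the Mrps33 intron 1 peak (3.63 and 4.16) and the distal peaks of Mrpl19 (2.89 and 3.34), Mrps30 (2.97 and 3.40) and Mrpl9 (2.98 and 3.29), none of them opened in the authors' deposited table.

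The medians of large and small subunit genes were close. After PPx the median change between genotypes was 0.80 over 27 large subunit peaks and 0.70 over 16 small subunit peaks, with 7 and 2 opened. At promoters alone it was 0.81 (24 peaks) and 0.79 (10 peaks), since more of the small subunit peaks lay outside promoters. Relative to peaks of like concentration and class the order turned, with a difference of -0.005. Before PPx the medians were 0.03 (16 peaks) and 0.015 (8 peaks), and this difference, too, changed sign at promoters alone (-0.045). With no values per mouse, the difference between the subunits could not be tested.

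**Figure D2:**
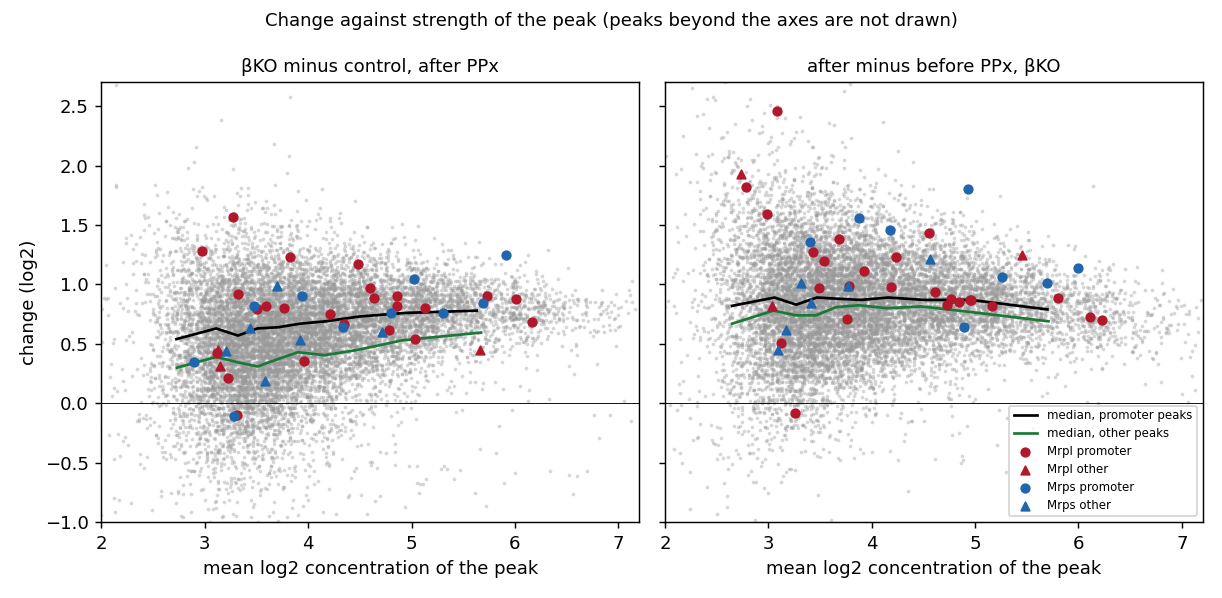
Log2 change (y axis) against the mean log2 concentration of each peak (x axis), for βKO minus control after PPx on the left and after minus before PPx in βKO islets on the right, with members in colour, other peaks in grey, and lines for the medians of other peaks in 10 bins of concentration. Most members on the left lie around the black line of the promoters, and on the right Mrps14 (1.80) stands above all other members of its strength.

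In control islets no member passed the test of after against before PPx. Of 25 peaks of 23 genes, 0 opened in the authors' deposited table, as did 0% of all peaks, and 0 had an unadjusted p under 0.05 against 2.53% of all peaks. The median change was 0.26, with 19 peaks higher after PPx, beside 0.16 over all peaks and 0.15 over all promoters. The highest were Mrpl37, a mitochondria-specific protein (3.15 before and 3.80 after), Mrpl19 (3.79 and 4.43) and the Mrps31 promoter (3.56 and 4.07). The lowest were the Mrps27 intron (3.73 and 3.11), the Mrpl1 promoter (3.59 and 3.15) and Mrps36 (3.69 and 3.43), all with an FDR of 0.999, per the authors' deposited table. Mrps14 (4.47 and 4.46) and Mrpl46 (4.13 and 4.07) had small gaps between the times, and the strongest peaks were Mrpl32 (5.72 and 5.88), Mrpl50 (5.27 and 5.54) and the Mrpl1 intron (5.16 and 5.45).

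In βKO islets the members were more accessible after PPx than before. Of 42 peaks of 33 genes, 41 (97.6%) were higher after PPx, as were 97.1% of all peaks, and 8 opened in the authors' deposited table, beside 7.44% of all peaks. The median change was 0.99, with quartiles of 0.83 and 1.26, and 31 of 42 peaks had an unadjusted p under 0.05, beside 39.4% of all peaks and 46.2% of all promoters. All peaks together had a median of 0.83 and all promoters one of 0.86, so the members' median lay somewhat above that of all promoters. The members' median excess over like peaks was 0.15, with quartiles of -0.02 and 0.45 and 29 of 42 above 0. This comparison and the comparison of genotypes after PPx share the 4 βKO libraries after PPx, so their gains are not independent of each other. The 3 βKO libraries before PPx are likewise shared with the comparison of genotypes before PPx. A low level in them, as at Mrps14 (-0.74 against control) and Mrpl46 (-0.53), enters both results. The Mrps28 promoter, which opened here, was higher in them than in control (0.42).

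**Figure D3:**
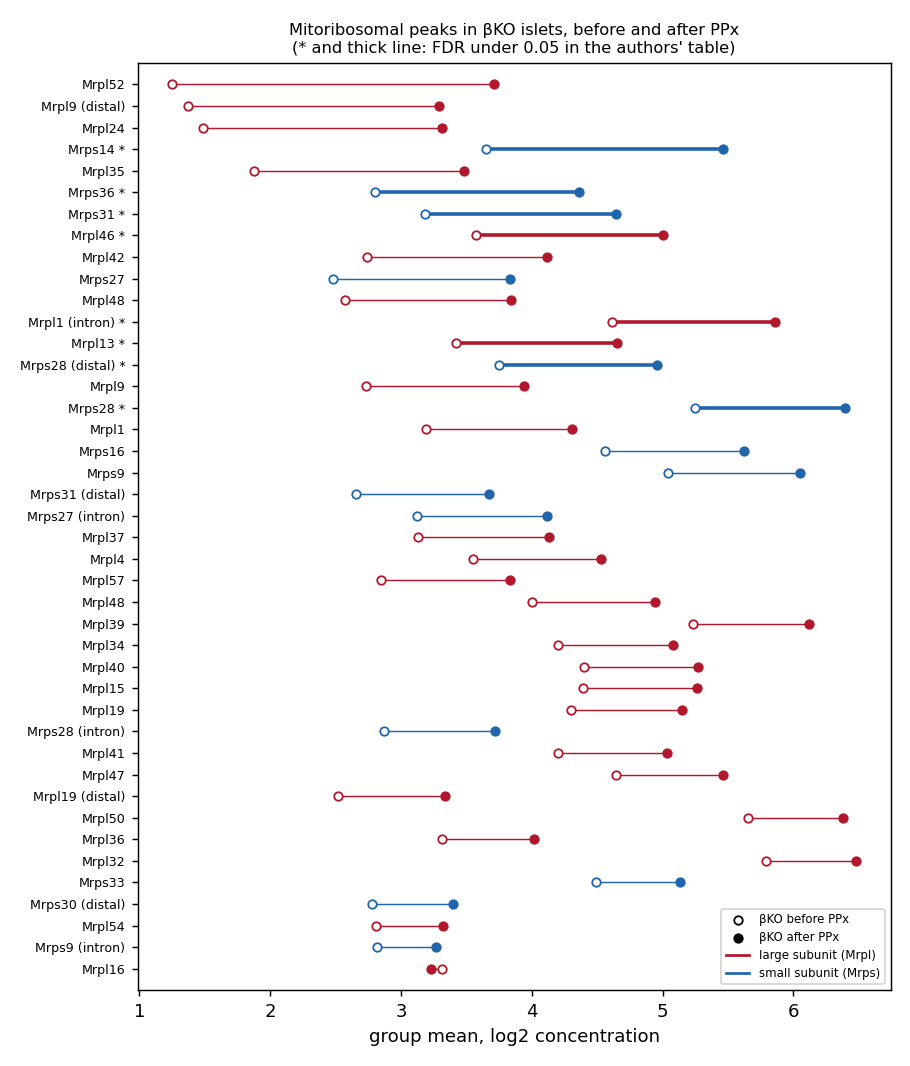
Group means (log2 concentration, x axis) of the 42 peaks in βKO islets, open circles before and filled circles after PPx, sorted by the change, with large subunit genes in red and small subunit genes in blue. Mrps14 has the longest of the 8 thick lines that mark opened peaks, from 3.65 to 5.46, and Mrpl16 alone has the filled circle on the left.

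Of the 8 opened peaks, 5 belonged to small subunit genes by name, Mrps36 among them. Mrps14 read 3.65 before and 5.46 after PPx, a change of 1.80 (SE 0.389, FDR 0.0077) in the authors' deposited table, and was called in all 3 libraries before and all 4 after. Its excess over promoters of like concentration was 0.93. Mrps36 rose from 2.80 to 4.36 (change 1.56, SE 0.472, FDR 0.0349) and went from 0 to 4 libraries with a called peak. The Mrps31 promoter (chr8:22411192-22411792), of a mitochondria-specific protein, rose from 3.18 to 4.64 (change 1.46, FDR 0.041) in the authors' deposited table. Mrps28 opened both at its promoter (5.25 and 6.39, FDR 0.0426) and at the distal site (chr3:8766756-8767356), which read 3.75 and 4.96 (FDR 0.049). The difference between Mrps14 and the other small subunit genes was not tested.

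Large subunit genes held the other 3. Mrpl46 rose from 3.57 to 5.00, a change of 1.43 (SE 0.416, FDR 0.0315) in the authors' deposited table. The intron 3 peak of Mrpl1 (chr5:96222078-96222678) rose from 4.61 to 5.86, a change of 1.25 (SE 0.411, FDR 0.0422), while the Mrpl1 promoter (3.19 and 4.31) had an FDR of 0.0617. Mrpl13, the counterpart of bacterial L13, rose from 3.42 to 4.65 (FDR 0.0457). The same 3 promoters, of Mrpl46, Mrps14 and Mrps28, were opened both here and against control after PPx. The 6 others opened against control had FDRs between 0.0617 and 0.108 here in the authors' deposited table, at Mrpl1, Mrpl39 (5.23 and 6.12), Mrpl48 (4.00 and 4.94), Mrpl50 (5.65 and 6.38), Mrpl15 (4.39 and 5.26) and Mrpl41 (4.20 and 5.03).

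The extremes among the other peaks were again weak. Mrpl52, a mitochondria-specific protein, read 1.25 before and 3.71 after PPx, a change of 2.46 (unadjusted p 0.000144), with an FDR of 1, per the authors' deposited table. The Mrpl9 distal peak (1.37 and 3.29) and the Mrpl24 promoter (1.49 and 3.31) followed, also with an FDR of 1. None of these 3 was called in a library before PPx. The lowest were Mrpl16 (3.31 and 3.23), the Mrps9 intron 5 peak (2.82 and 3.27) and Mrpl54 (2.81 and 3.32). The strongest peak was Mrpl32 (5.79 and 6.48, FDR 0.128 in the authors' deposited table). Mrpl36, a promoter listed only in this comparison, read 3.31 and 4.02 (FDR 0.193). The other peaks outside promoters were at Mrps31 (2.66 and 3.67), Mrps27 (3.12 and 4.12), Mrps28 intron 2 (2.87 and 3.72), Mrpl19 (2.52 and 3.34) and Mrps30 (2.78 and 3.40), each with an FDR above 0.05 in the authors' deposited table. The 9 member peaks outside promoters had a median change of 0.99, the same as the 33 member promoter peaks. Of these 9, 2 opened, beside 3.57% of all non-promoter peaks. By subunit the median was 0.955 over 28 large subunit peaks and 1.035 over 14 small subunit peaks. At promoters alone it was 0.94 (25 peaks) and 1.25 (8 peaks, with Mrps36 counted by name). This gap of -0.31 in large minus small could not be tested.

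The change after PPx was larger in βKO than in control islets at every member that could be matched, as at most peaks. At 7536 peaks that overlapped between the comparisons of times, the median of the βKO change minus the control change was 0.65, and at promoters 0.69. At the 25 member peaks it was 0.75, all 25 were above 0, and 18 were above the median of all peaks. Relative to that median, an approximate normal test with Benjamini-Hochberg adjustment passed 0 members and 0% of all peaks. The smallest unadjusted p among members was 0.025, at Mrps14, with an adjusted p of 0.999. No other member was under 0.05, beside 1.51% of all peaks that were. The largest differences were at Mrps36 (1.82), Mrps14 (1.81) and the Mrps27 intron (1.61), and the smallest at Mrpl19 (0.21), Mrpl37 (0.34) and, at 0.42 each, Mrpl15 and Mrps33. Relative to the median of all peaks, the largest member difference was 1.17, at Mrps36. With a median SE of 0.545 per member, differences of the size seen at the members were below what this test could find.

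**Figure D4:**
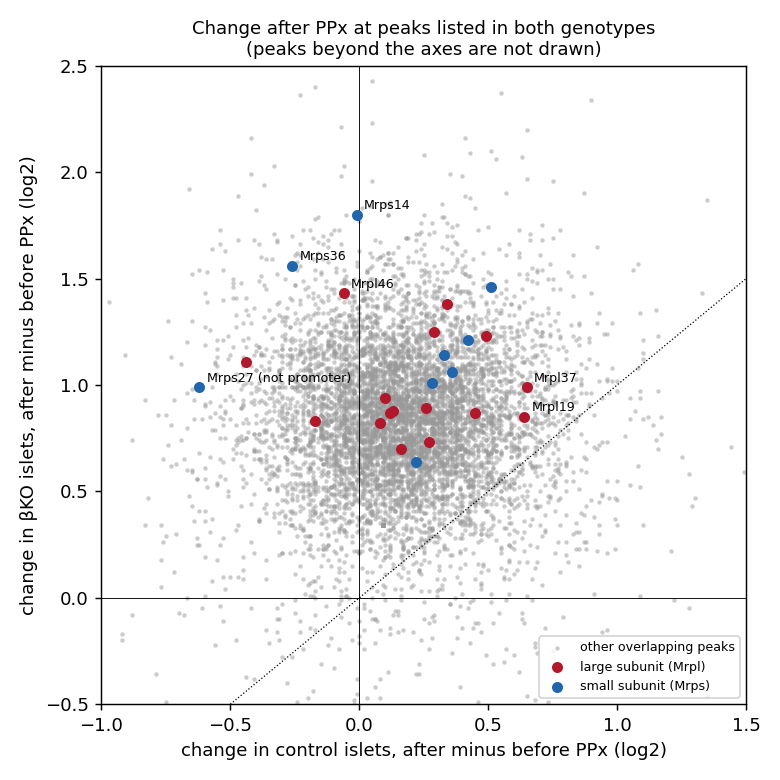
Change after PPx in control (x axis) and βKO islets (y axis), both log2, at peaks listed in both comparisons, with large subunit genes in red, small subunit genes in blue, other peaks in grey and a dotted line where the changes are equal. All 25 member peaks lie above the dotted line, Mrps36 (-0.26 and 1.56) and Mrps14 (-0.01 and 1.80) farthest from it.

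Many of these promoters serve a pair of genes. Of the 27 member promoter peaks after PPx that held a RefSeq start, 9 (33.3%) held starts on opposite strands, against 16.2% of all promoter peaks with a start. The pairs share 1 value, so the gain at a mitochondrial ribosomal gene is there also the gain of its neighbour. Mrpl46 and Mrps11, 42 bases apart, join a large and a small subunit gene, and the shared peak is listed under Mrpl46 alone. Mrpl47 starts 308 bases from Ndufb5, a subunit of respiratory complex I, and Mrps27 starts 108 bases from Ptcd2, a mitochondrial RNA-binding protein. Other partners have unrelated roles, such as the proteasome subunit Psma2 beside Mrpl32 (205 bases), the histone chaperone Hira beside Mrpl40 (113 bases) and the kinetochore protein Ska3 beside Mrpl57 (76 bases). Mrpl50 pairs with Zfp189 (93 bases) and Mrpl37 with Cyb5rl (128 bases). Mrpl48 and Rab6a, a Golgi GTPase, start 36 bases apart and run toward each other. Of these 9 pairs, those of Mrpl46, Mrpl48 and Mrpl50 opened against control after PPx.

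**Figure D5:**
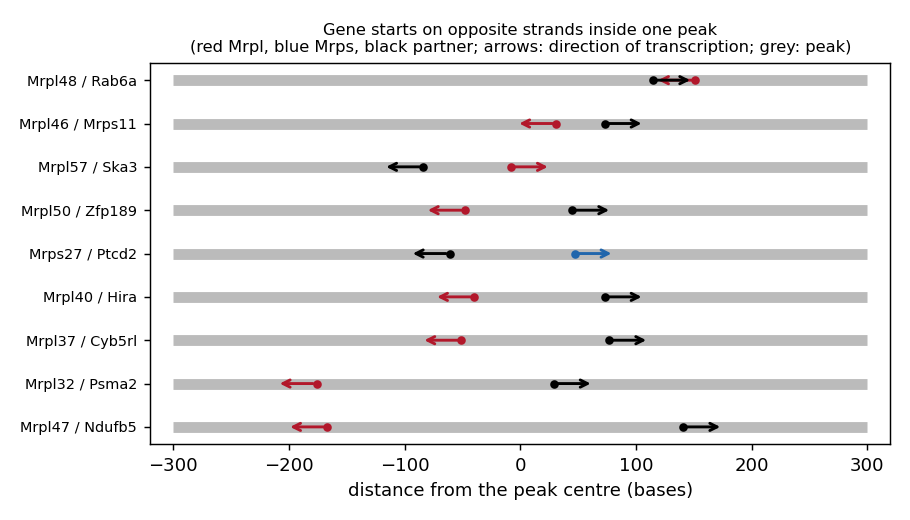
Distance of gene starts from the peak centre (bases, x axis) in the 9 member promoter peaks after PPx that hold starts on opposite strands, with arrows for the direction of transcription and grey bars for the peak. Mrpl47 and Ndufb5 are 308 bases apart, and only Mrpl48 and Rab6a point toward each other.

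Naming by nearest gene also hides some members. Among the genes whose start lies in a peak named for a neighbour, Mrps18c lies in the Helq peak, which opened after PPx (3.12 in control and 4.35 in βKO islets, FDR 0.0325 in the authors' deposited table) and went from 0 to 4 called libraries. Mrpl18 lies in the Tcp1 peak, which opened in βKO islets between the times (5.22 and 6.20, FDR 0.0472). Mrpl17 lies in the Gm15645 peak, among the strongest after PPx (5.67 in control against 6.30 in βKO islets, FDR 0.153, per the authors' deposited table). Mrpl44 (in the Wdfy1 peak), Mrpl53 (Ccdc142os), Mrps12 (Sars2), Mrps26 (4930473A02Rik), Mrps6 (Slc5a3) and Mrpl21 (Ighmbp2) passed the threshold in neither comparison that holds βKO islets after PPx, per the authors' deposited tables. The start of Mrps30 lies in the B430218F22Rik peak (4.84 and 5.60 after PPx, FDR 0.0755), while the peak listed under Mrps30 is distal. The start of Mrps18b lies inside a Ppp1r10 peak only in the comparison of control islets between the times, near the edge of that peak.

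The promoter words were counted over 69 genes with a RefSeq window, on both strands. The ETS word CCGGAAG was found in 37.7% of them, against 9.93% of all 27025 genes and 21.7% of the 6385 genes that start in a listed peak after PPx. The YY1 word AAGATGGC stood in 17.4%, against 3.19% and 5.20%. The NRF1 word GCATGCGC stood in 11.6%, against 3.05% and 6.78%. The SP word GGGCGG was found in 49.3%, against 38.2% and 73.1%. Only 37 of the 69 members start in a listed peak after PPx. Their shares were 40.5% (ETS), 18.9% (YY1), 10.8% (NRF1) and 56.8% (SP). The 9 genes with a window and an opened peak in either comparison held GGGCGG in 5, the ETS word in 1, the NRF1 word in 1 and the YY1 word in 0. Large subunit windows held the NRF1 word in 16.3% and small subunit windows in 3.85%, while the ETS word was in 34.9% and 42.3%, the YY1 word in 14.0% and 23.1%, and the SP word in 39.5% and 65.4%.

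Most of the other lists of mitochondrial gene expression had medians near that of the members, and translation factors a lower one. The median change after PPx was 0.75 for assembly and RNA handling, 0.84 for mitochondrial DNA, 0.74 for aminoacyl-tRNA synthesis and 0.50 for translation factors, with no test between them. Of 27 genes for mitoribosome assembly and mitochondrial RNA handling, 14 had a listed peak after PPx and 3 opened against control in the authors' deposited table. These were Tfb1m, an rRNA methyltransferase (4.44 and 5.55, FDR 0.032), Mterf3 (5.66 and 6.69, FDR 0.0357) and Pnpt1, an RNA-degrading enzyme (4.11 and 5.04, FDR 0.046). Of 12 genes for maintenance and transcription of mitochondrial DNA, 8 were listed and 3 opened, Mterf2 (FDR 0.0286), Mgme1 (FDR 0.0358) and Ssbp1 (FDR 0.0396). Of 20 genes for mitochondrial aminoacyl-tRNA synthesis, 14 were listed, and Mars2 was among those that opened (5.48 and 6.36, FDR 0.0425) in the authors' deposited table. Of 15 translation factor genes 7 were listed and 0 opened, with the elongation factor Gfm1 at 4.78 and 5.62 (FDR 0.057) and Oxa1l, which inserts proteins into the inner membrane, at 3.62 and 3.30 (FDR 1), below the lowest member in change. Of 7 further genes, 3 were listed and 0 opened, among them the small subunit proteins Dap3 (2.48 and 3.01, FDR 1) and Ptcd3 (3.53 and 4.46, FDR 0.0545). Against control after PPx, 9.88% of all peaks and 14.3% of all promoters opened. In the order given, the lists had 3 of 16, 3 of 9, 2 of 16, 0 of 7 and 0 of 3 peaks opened. None of these lists held a closed peak. In βKO islets between the times, 7.44% of all peaks opened in the authors' deposited table. In the same order, the lists had 3 of 16, 1 of 9, 1 of 16, 0 of 7 and 1 of 3 peaks opened. These were at Lrpprc, Mterf3 and Nsun4, at Polg2, at Hars2, and at Mterf4, which binds Nsun4 in ribosome assembly.

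The cytosolic ribosome gave a similar picture. Its 50 peaks after PPx had a median change of 0.71 between the genotypes, with 50 of 50 higher and 10 opened in the authors' deposited table, and a median excess over like peaks of 0.04. In βKO islets between the times its 51 peaks had a median of 0.95 and 6 opened. The mitochondrial set (medians of 0.76 and 0.99) stood close to it in both comparisons, and whether they differed was not tested.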

How the data were processed

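Islets of 15 mice in 4 groups were profiled by ATAC-seq, read as single ends of 75 bp after transposition at 37 °C for 30 min. Per the submitters' processing notes, the tools were BWA, cutadapt, ChIPseeker, MACS and DiffBind, and the build was mm10 (GRCm38). Not given in the sources used here are their versions, their order, the peak-calling settings, the test behind the p-values and whether reads were shifted for Tn5. Every comparison has a deposited table of its own, in which a peak spans 601 bp. Per the file headers, the authors' deposited tables give for each peak a log2 concentration (mean and per group) and a log2 fold. For each peak the authors' deposited tables add a p-value, an FDR (a q-value) and, as whole numbers per the file headers, how many libraries of each group had the peak called. The fold equalled the difference of the groups within 0.01, and its sign was turned here. Many weak peaks carry an FDR of 1 beside a small p-value, and the rule behind this was not given.

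Here repeated positions were merged and 1 empty row dropped. Members were compared with other peaks of the same class (promoter or not) in 10 bins of mean concentration. The SE is the absolute log2 fold divided by the normal quantile of the authors' p-value. For p-values of at least 0.5, or changes under 0.1, the median SE in 20 bins of concentration was used for the test of the difference between genotypes, and no SE is printed. Peaks of different tables were matched at an overlap of at least 1 bp, and that test used Benjamini-Hochberg adjustment over 7536 peaks. On simulated data it found 0 of 200 differences of 1 relative to the median, 51% of those of 2 and 92.5% of those of 3. The largest member difference relative to the median was 1.17, so an absence of calls among members carries little information. Promoter windows and starts come from RefSeq (GRCm38.p6) tables, in which 69 of 78 genes had a window.

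The members and gene lists were chosen with earlier results of these data known, so counts over them are descriptions and carry no test. Named members were, by rule, every opened peak, the 3 highest and 3 lowest changes and the 3 strongest peaks per comparison, genes with several peaks, peaks outside promoters, and the 3 largest and smallest differences between genotypes. Python 3.11.15, pandas 2.3.3, numpy 2.4.6, scipy 1.17.1 and matplotlib 3.10.9 were used.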

Additional observations from a re-analysis of the deposited data

How the results depend on the processing

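Of 91 alternative values, 77 kept their direction and moved by less than 1.5 times (counts) or 0.1 (medians, log2), 9 moved further and 5 turned sign. The 77 include counts of 0 that stayed 0, some of which could not change, as with a stricter FDR. The count of members opened against control after PPx (9) was 0 at an FDR under 0.01, 16 at an FDR under 0.10 and 5 with a Benjamini-Hochberg adjustment over all listed peaks. The count in βKO islets between the times (8) was 1, 23 and 5 under the same settings. These counts depend on the threshold, since many members lie just around it. The large minus small subunit difference in median change had no stable sign. Before PPx (0.015) it was -0.045 at promoters alone, -0.01 with 1 peak per gene and -0.01 relative to peaks of like concentration and class. Against control after PPx (0.1) it was -0.005 relative to like peaks, and in control islets between the times (-0.07) it was 0.01 with 1 peak per gene. In βKO islets between the times (-0.08) it was -0.31 at promoters alone and -0.185 relative to like peaks. The members' median difference between the genotypes' changes (0.10 relative to all peaks) was 0.75 without centring, which keeps the gain common to all peaks. The other causes were not tested. Counting peaks named for a neighbour that hold a member's start was added after seeing the data. No paired analysis was possible because the tables hold no values per library, and for the same reason no library could be left out. Depth is unknown, and members with an FDR of 1 after PPx had mean concentrations of at most 3.48.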
